A study of Mus musculus with 384 samples.

Results

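Adult basal mammary cells were described from 100 single cells of the basal sort gate, out of 331 single cells kept in the whole series. The cells were chosen by the title of the well, single cells of the basal gate, with a sort label that named the same gate (CD24-positive, high CD29). A well was kept if its gene reads numbered 50000 or more, if 1500 or more genes had a read, and if mitochondrial genes took no more than 20% of its reads, which left 100 wells and put aside 18. The kept wells nearest to these limits had 74436 reads, 1508 genes and 17.1% mitochondrial reads, and the nearest wells left out had 48061 reads, 1429 genes and 24.7%. Of the 18 wells left out, 18 were under the limit on genes, 10 also under that on reads and 4 over the mitochondrial limit.

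The mammary ducts and alveoli are a bilayer, with luminal cells that face the lumen and basal cells that sit on the basement membrane. Most basal cells of the adult gland are myoepithelial: they hold smooth muscle actin and myosin, bind oxytocin, and contract to eject milk. They also carry the keratins 5 and 14 of stratified epithelia, the transcription factor p63, and integrins that fix them to laminin.

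The study sorted single cells of 3 gates into one 384-well plate and read them with Smart-seq2, a full-length method with oligo-dT priming and no molecular identifiers. The adult basal and luminal cells came from dissociated glands of Rosa-tdTomato mice, and the third gate held Lgr5 reporter-positive cells (Lgr5-EGFP-IRES-CreER) from female embryonic skin at day 14 of gestation. In all gates the sort removed dead cells (DAPI) and blood, endothelial and mesenchymal cells by CD45, CD31 and CD140a. The age of the adults, the number of animals and the animal behind each cell are not given in the labels, so the basal gate is 1 sample, cells are not replicates, and no test was made.

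Gene reads per kept basal cell had a median of 486690 (74436 to 1466484), and the genes with a read a median of 2874.5 (1508 to 6807). The 4 wells without a cell had 34 to 563 gene reads and no read of any of the 6 basal markers. To compare shares of cells, reads of each kept cell were drawn at random down to 50000, and a gene counted as detected with 5 reads, which is 100 reads in 1000000 (CPM). An undetected gene is therefore below that level or missed, not absent. Intervals after shares are exact 95% Clopper-Pearson intervals. Limits on shares of 0 are by another rule, 3 cells divided by the kept cells of the gate. For luminal cells this gives 2.78%, below the exact upper limit of 3.36%. Both cover counting error only. CPM are given for 1 gene across cells, and levels of different genes are compared only per length, as TPM, which scales read density along the exons to a fixed total, over the summed reads of the gate.

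The label was checked against 6 markers: Krt5 and Krt14 (basal keratins), Acta2 (smooth muscle actin), Myh11 (smooth muscle myosin heavy chain), Oxtr (oxytocin receptor) and Trp63 (p63). At least 3 of the 6 were detected in 84% of the 100 cells (75.3 to 90.6%), and all 6 in 33% (23.9 to 43.1%). In the luminal gate 2.78% of kept cells (0.577 to 7.90%) had 3 or more of them and 90.7% had none. In the embryonic gate 39.8% (31.1 to 49.1%) had 3 or more, and no cell had more than 4. The label thus held for most of the wells, but 12 wells of the basal gate (12%, 6.36 to 20.02%) had none of the 6.

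**Figure D1:**
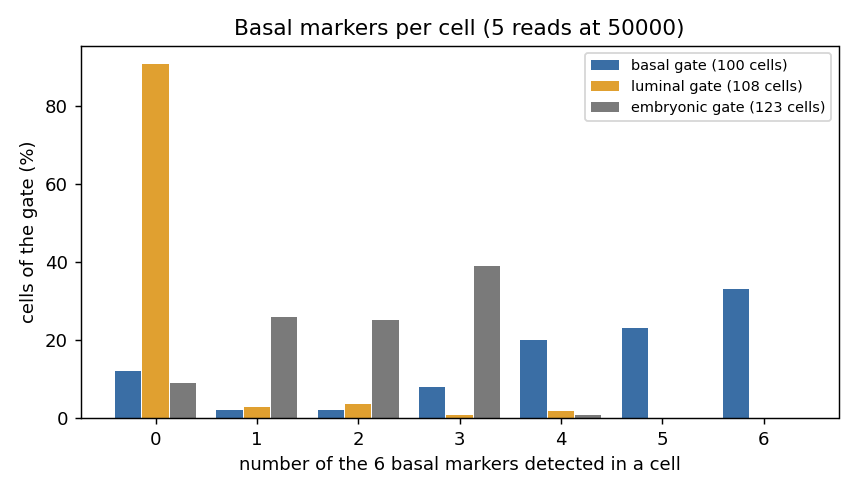
Share of kept cells of each gate (vertical axis, %) by the number of the 6 basal markers detected in the cell (horizontal axis); bars are the basal, luminal and embryonic gates. Of the basal cells, 33% had all 6 markers and 12% had none, while 90.7% of luminal cells had none.

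The 12 wells without a basal marker fell into 3 kinds by other markers. Of them, 6 were most like the luminal well of 50 cells, with 5 to 7 of 14 luminal markers and 2305 to 4887 genes with a read. The next 5 held 6 to 8 of 9 endothelial markers, with 1582 to 2602 genes. The last had 6 of 9 markers of pericytes or vascular smooth muscle and 2285 genes. Of the 6 wells most like the luminal well, 1 also had 5 of these 9 markers, beside 7 luminal markers, so the kinds overlapped. None of the 100 cells had 3 or more fibroblast or immune markers, and Ptprc, which encodes the sorted-out CD45, was detected in 0 of 100 cells, which allows a share of up to 3%. Pecam1, which encodes the sorted-out CD31, was detected in 8 cells.

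The 6 wells with endothelial markers had Fabp4, a fatty acid carrier of capillaries, at 4692 to 43035 CPM. They also held 99.6% of the gate's CPM of Cd36, a fatty acid transporter, and 100% of that of Cdh5, which encodes VE-cadherin. One of these 6 wells also had 5 basal markers, with 4379 genes with a read. A well that was most like the luminal well of 50 cells had all 6 basal markers beside 7 luminal markers, with 5203 genes. Another 2 wells were most like the embryonic well of 50 cells, had all 6 basal markers and had 3584 and 6807 genes. Among wells most like the basal well of 50 cells, 2 had 3 luminal markers, beside 5 and 3 basal markers. Whether any of these wells held more than 1 cell was not tested.

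Wells that were most like another gate's well of 50 cells, or that had at least 3 endothelial or 3 pericyte markers, are called cells in doubt below. There were 17 of them, a rule chosen after the data were seen, and many results are given both for all 100 cells and for the 83 others. The 2 wells with 3 luminal markers beside basal ones are among the 83. Among the 83, none lacked all 6 markers, 80 had 3 or more (96.4%, 89.8 to 99.2%) and 30 had all 6. Acta2 or Myh11 was detected in 83 of the 83, and Krt5 or Krt14 in 80.

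Acta2 (ENSMUSG00000035783.8, GRCm38 chromosome 19, 34241090 to 34255590, minus strand) ranged from 0 to 32585 CPM over the 100 cells with a median of 6758 CPM. In the 83 cells the lowest value was 28.6 CPM, the median 7850 CPM and the highest 32387 CPM. So each of the 83 had Acta2 reads, over a wide range, and the cells without any were all in doubt. Acta2 was detected in 85% of the 100 cells (76.5 to 91.4%) and 97.6% of the 83 (91.6 to 99.7%), against 6.48% of luminal cells (2.65 to 12.9%).

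Krt14 (chromosome 11, 100203162 to 100207548, minus strand) ran from 0 to 10588 CPM with a median of 1284 CPM. Krt5 (chromosome 15, 101707070 to 101712898, minus strand) ran from 0 to 3157 CPM with a median of 465 CPM. These keratins form the filament pair of basal epithelia. Krt14 was detected in 77% of the 100 cells (67.5 to 84.8%), 87.95% of the 83 and 5.56% of luminal cells. For Krt5 the shares were 76% (66.4 to 83.98%), 86.7% and 3.704%.

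Myh11 (chromosome 16, 14194535 to 14291372, minus strand) had a median of 540 CPM and a highest value of 4080 CPM. It was detected in 73% of the 100 cells (63.2 to 81.4%), 83.1% of the 83 and 1.85% of luminal cells. The oxytocin receptor gene Oxtr (chromosome 6, 112473683 to 112489943, minus strand) had a median of 182 CPM and a highest value of 6505 CPM. Oxtr was detected in 56% of the 100 cells (45.7 to 65.9%), 62.7% of the 83 and 1.85% of luminal cells. Trp63 (chromosome 16, 25683763 to 25892102, plus strand) had a median of 124.2 CPM and a highest value of 4301 CPM, with shares of 56%, 62.7% and 0.926%. Each of these 3 genes had 0 reads in some of the 83 cells, whereas Krt5 had at least 1.69 CPM in each of them.

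**Figure D2:**
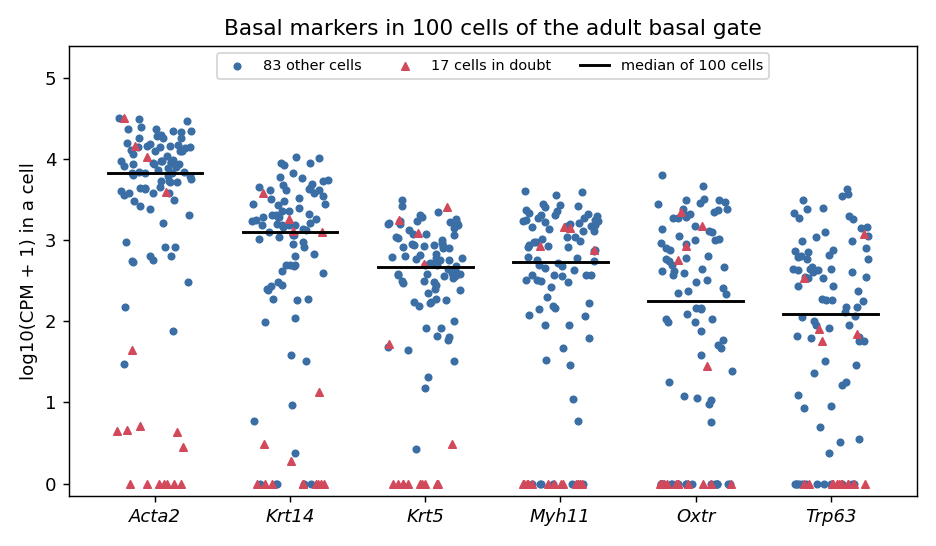
Level of the 6 basal markers in each of the 100 cells, as log10(CPM + 1); circles are the 83 other cells, triangles the 17 cells in doubt and lines the medians of 100 cells. Acta2 is above 0 in all 83 circles, while Oxtr and Trp63 have circles at 0 and medians of 182 and 124.2 CPM.

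Acta2 and Krt14 were both detected in 75 of 100 cells, Acta2 without Krt14 in 10, Krt14 without Acta2 in 2, and neither in 13. Without the cells in doubt, these were 71, 10, 2 and 0 of 83 cells. In the 100 cells 75% had both, against 65.45% from the product of the separate shares, and in the 83 cells 85.5% against 85.8%. The excess in the 100 cells was thus not seen in the 83, where nearly all cells had Acta2. A smooth muscle transcript and a basal keratin were thus seen in the same cell in most of the gate: Acta2 with Krt5 or Krt14 in 82 of 100 and 78 of 83. Oxtr was seen with Acta2 in 55 of the 56 cells that had it. That is 55% of the 100 cells, against 47.6% from the product of the separate shares. In the 83 cells the pair was seen in 61.4% against 61.1%, so here too the excess was hardly seen.

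Per length, Acta2 had the highest level of the named genes other than an annotated ribosomal RNA (CT010467.1), at 12785 TPM. The lipid carrier gene Apoe followed at 9228 TPM, the elongation factor gene Eef1a1 at 8792 TPM, and Chil1, which encodes a secreted chitinase-like protein, at 6328 TPM. The next were the membrane protein gene Ifitm3 at 5911 TPM, Fos at 5596 TPM and Actb at 5569 TPM. B2m (light chain of MHC class I), Slpi (a secreted protease inhibitor) and Sparc (a matrix protein of the basement membrane) had 5284, 5237 and 4669 TPM. Krt14 had 3711 TPM and Myl9, the regulatory light chain of smooth muscle myosin, 3245 TPM.

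These top levels were not shared evenly. Apoe was detected in 90% of the 100 cells and in 83 of the 83, with a lowest value of 353 CPM among the 83. Slpi was detected in only 54% of the 100, with a median of 302 CPM and a highest value of 24731 CPM. Sparc was detected in 94% of the 100 and 98.8% of the 83, with a median of 5940 CPM. The 20 genes with the highest level by the naming rule held 9.95% of all gene reads of the gate. The annotated ribosomal RNA CT010467.1, with a median of 30238 CPM, is among these 20. Ribosomal protein genes held 7.17% and mitochondrial genes 5.52%.

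Of 17669 genes with a read in the gate, 427 (2.42%) were detected in at least 50% of the 100 cells, 0.583% in at least 90% and 17 genes in all 100. Of the genes in at least 90%, 57 encode ribosomal proteins and 8 are mitochondrial. The others include Apoe, Sparc, Fos, Egr1, the essential myosin light chain gene Myl6 and the transcription factor gene Nfib. In the 83 cells, 434 of 16509 genes (2.63%) were detected in at least 50%. Most genes were rare: 6278 genes were detected in 1 to 5 cells, and the median share over the 17669 genes was 3%.

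The contractile filament list held 24 genes, and 13 of them were detected in at least 50% of the 100 cells, 14 in the 83. Their median share was 60%, against 3% over all genes with a read. Myl6 was the most frequent, in 95% of cells (88.7 to 98.4%), with a median of 916 CPM and a highest value of 4552 CPM. Mylk, the kinase that switches on smooth muscle myosin, was detected in 85% with a median of 1041.5 CPM (0 to 7745). It was seen in 95.2% of the 83 cells and 4.63% of luminal cells.

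The tropomyosin gene Tpm2, whose product lies along the actin filament, ranged from 0 to 11009 CPM with a median of 1618 CPM. Tpm2 was detected in 81% of the 100 cells and 92.8% of the 83. Myl9 had a median of 867 CPM and was detected in 71% of the 100 and in 0.926% of luminal cells. Calponin 1 (Cnn1) was detected in 61% and transgelin (Tagln) in 59%, each in 68.7% of the 83 and 0.926% of luminal cells. Other members were frequent in both adult gates: Myl6 was in 87.04% of luminal cells and Tpm1 in 68.5%. Smtn (smoothelin) was detected in 47% of the 100 cells, Pdlim3 in 42% and Lmod1 (leiomodin) in 29%, so these were under the 50% limit at this depth.

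Contractile genes varied together from cell to cell. Over the 78 pairs of the 13 frequent members, the median Spearman correlation over the 100 cells was 0.50, against 0.04 over the 90951 pairs of the 427 frequent genes. Over the 83 cells the medians were 0.38 and 0.02. Thinned to equal depth, they were 0.49 and 0.04 over the 100 and 0.38 and 0.02 over the 83. These are descriptions over cells of 1 library plate that share depth and sort, with no test.

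Serum response factor and its partners are known to bind an element called the CArG box in front of many smooth muscle genes. RefSeq promoter windows (GRCm38.p6, 250 bases before to 50 bases after the start) were found for 20 of the 24 contractile genes, in 23 windows. The letters of the box, which read the same on both strands, were found for 4 of the 20 genes: Myl9, Cnn2, Myl6 and Vcl. Over all 32851 windows 1.63% hold it. The windows of Acta2, Cnn1 and Tpm2 do not hold these exact letters. Boxes that differ by a letter were not searched for, so this says nothing of such boxes within the windows or of other positions.

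The stretches around the box in 3 of these genes, from before the start and with the box in capitals, are shown because contractile genes varied together over cells (Myl9 chr2:156775258-156775337, Cnn2 chr10:79988499-79988578, Vcl chr14:20929148-20929227, all plus strand):
Myl9: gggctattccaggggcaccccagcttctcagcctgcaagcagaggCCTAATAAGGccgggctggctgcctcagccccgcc
Cnn2: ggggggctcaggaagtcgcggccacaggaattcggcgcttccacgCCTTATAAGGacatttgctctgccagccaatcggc
Vcl: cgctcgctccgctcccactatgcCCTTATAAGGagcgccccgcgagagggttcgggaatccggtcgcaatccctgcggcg
The box began 161 bases before the start in Myl9, 56 in Cnn2 and 227 in Vcl. Over the 100 cells the Spearman correlation with Acta2 was 0.71 for Myl9, 0.66 for Myl6 and 0.46 for Cnn2. For Vcl it was 0.20. For the 15 other genes with a window, none of which holds these exact letters, it ran from -0.14 (Des) to 0.79 (Tpm2). Their median was 0.44, so the groups overlapped. A match is a description of letters, and binding was not measured.

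By likeness to Acta2 over cells, the 5 closest of the 427 frequent genes were Tpm2 (Spearman 0.79), Cnn1 (0.78), Tagln (0.73), Myl9 (0.71) and Myh11 (0.68). In the 83 cells their values were 0.67, 0.71, 0.63, 0.60 and 0.53. All 5 belong to the contractile list. In the 83 cells Actb was the fourth (0.60) and Myh11 was not among the 5. Within single plate rows, with the cells in doubt included, the 5 named first each stayed above 0.43. The nuclear RNA Malat1 had the lowest value with Acta2, -0.46 in the 100 cells and -0.44 in the 83. With the number of genes with a read, Acta2 itself had a Spearman correlation of 0.43 in the 83 cells and Malat1 one of -0.56, and the part of depth in these values was not tested.

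For Krt14 the closest were Krt17 (0.62), the chemokine gene Cxcl14 (0.59), Antxr1 (0.54), Tagln (0.52) and Oxtr (0.49). In the 83 cells these were 0.52, 0.40, 0.45, 0.32 and 0.33. Krt14 with its filament partner Krt5 had 0.47 in the 100 cells but 0.22 in the 83. For Oxtr the closest were Cald1 (0.55), Krt5 (0.53), Tagln (0.53), Cxcl14 (0.52) and Krt17 (0.51), with 0.43, 0.35, 0.39, 0.36 and 0.42 in the 83. For each of the 3 genes, the partners ranked closest in the 100 cells all had lower values in the 83. Ranked in the 83 cells, the closest to Krt14 were Krt17, Antxr1, Cxcl14, Tmsb4x (0.40) and Fblim1 (0.37). The closest to Oxtr there were S100a6 (0.49), Tm4sf1 (0.46), Cald1, Sdc4 (0.43) and Krt17. Of the partners that entered only in the 83, Actb, Tmsb4x, S100a6, Tm4sf1 and Sdc4 had higher values there than in the 100. Fblim1 had a lower one. Oxtr itself had 0.53 with the number of genes with a read in the 83 cells, above its value with any of these partners, and the part of depth in them was not tested.

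**Figure D3:**
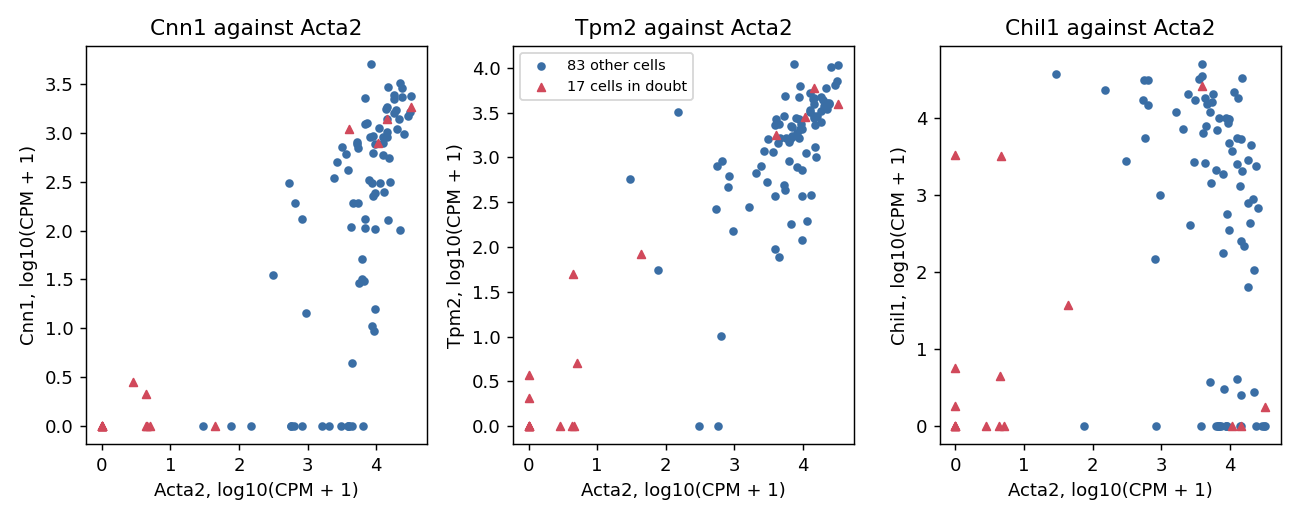
Cnn1, Tpm2 and Chil1 (vertical axes) against Acta2 (horizontal axes) in each cell, as log10(CPM + 1); circles are the 83 other cells and triangles the 17 cells in doubt. Cnn1 and Tpm2 are higher in cells with more Acta2 (Spearman 0.71 and 0.67 over the 83), and Chil1 is lower (-0.39).

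Oxytocin acts through its receptor, the G protein Gq, inositol trisphosphate and stored calcium, and calmodulin then turns on Mylk. Of 24 genes of this route, 4 were detected in at least 50% of the 100 cells, and the same number in the 83. The median share of the list was 20%. To set beside this list and those below, 2.42% of the 17669 genes with a read reached 50%, and their median share was 3%. They include the calmodulin gene Calm2 (74%), the calcium pump gene Atp2a2 (61%) and Oxtr (56%). Calm2 and Atp2a2 were also in 81.5% and 60.2% of luminal cells. The G protein gene Gnaq was detected in 37% and the kinase gene Rock1 in 34% of the basal cells.

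Of 7 basal keratin genes (median share 4%), 3 were detected in at least 50% of cells: Krt14, Krt5 and Krt17. Krt17 had a higher level per length than Krt5 (1799 against 1001 TPM) but was detected in fewer cells (53% against 76%). Its values ran from 0 to 5781 CPM with a median of 157 CPM. Krt15, another keratin of basal layers, was detected in 4% of the adult basal cells and 39.8% of the embryonic cells.

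Hemidesmosomes tie these keratins to the laminin below the cell. Of 11 genes of hemidesmosomes and laminin-332, 3 were detected in at least 50% of the 100 cells and 4 in the 83. The median share of the list was 40%. Dst, the dystonin gene, was detected in 83%, the integrin gene Itga6 in 81% and the integrin gene Itgb1 in 64%. Itgb1 encodes CD29, on which the gate was set, and Cd24a, which encodes the other sort antigen, was detected in 37% of basal and 79.6% of luminal cells. Col17a1, a collagen of hemidesmosomes, was detected in 49% of the 100 cells, 56.6% of the 83 and 1.85% of luminal cells. The laminin-332 chain genes Lama3 and Lamb3 were detected in 41% and 31%.

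Of 23 cell junction genes (median share 20%), 4 were detected in at least 50% of the 100 cells and 3 in the 83. Gja1, which encodes the gap junction protein connexin 43, was detected in 64% of basal and 7.41% of luminal cells. The other 3 were Perp (59%), Ctnnb1 (56%) and Jup (53%), of desmosomes and adherens junctions. Cdh3, which encodes P-cadherin of basal layers, was detected in 37% of basal and 0.926% of luminal cells. Epcam, an epithelial adhesion gene, was detected in 43% and 99.1%.

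Of 19 basement membrane genes (median share 21%), 4 were detected in at least 50% of the 100 cells and 5 in the 83. Sparc led with 94% (87.4 to 97.8%), against 9.26% of luminal and 89.4% of embryonic cells. The collagen IV genes Col4a2 and Col4a1 were detected in 58% and 54%, against 1.85% and 3.704% of luminal cells. Agrn, which encodes the proteoglycan agrin, was detected in 56%. Col4a5 was detected in 49% of the 100 cells and Lamc1 in 33%.

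Of 40 genes of secreted signals (median share 7%), 4 were detected in at least 50% of the 100 cells and 6 in the 83. Igfbp5, which encodes a binding protein of insulin-like growth factors, had a median of 4375 CPM, a highest value of 22083 CPM and a share of 84%. Cxcl14 was detected in 81% of basal, 5.56% of luminal and 71.5% of embryonic cells. Another chemokine gene, Cxcl12, was detected in 57% of basal, 1.85% of luminal and none of the embryonic cells (up to 2.44%). The cytokine gene Il17b was detected in 47% of the 100 cells, 53.01% of the 83 and 0.926% of luminal cells. Wif1, a secreted Wnt inhibitor, and Dkk3 were each detected in 35%, and each in 0.926% of luminal cells.

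Of 32 transcription factors of basal cells, 7 were detected in at least 50% of the 100 cells and 9 in the 83. The median share of the list was 17%. Nfib led with 91% and was also in 82.4% of luminal cells. Runx1 was detected in 77%, Nfia in 68%, Foxp1 in 65%, Sox9 in 61%, Trp63 in 56% and Tead1 in 51%. Sox9 was detected in 60.2% of luminal cells. Lower luminal shares were found for 3 others: Egr2 was detected in 49% of basal and 4.63% of luminal cells, Id4 in 47% and 1.85%, and Snai2 in 22% and none of the luminal cells, which allows a share of up to 2.78%.

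Wnt and Notch signals are known to bear on basal and luminal fates. Of 25 Wnt receptors and targets (median share 11%), 2 were detected in at least 50% of cells. They were the receptor gene Fzd7 in 53%, against 4.63% of luminal cells, and Tcf7l2 in 55%. Lgr5 was detected in 23% of the 100 basal cells (15.2 to 32.5%), 6.48% of luminal and 75.6% of embryonic cells. Of these 23 Lgr5 cells, 21 also had Acta2, which was in 85% of all cells. Of 18 Notch pathway genes none reached 50%, with a median share of 4% against 3% over all genes, and the ligand genes Jag1 and Dll1 led with 43% and 25%, against 17.6% and 2.78% of luminal cells.

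Of 30 growth factor and hormone receptors (median share 15%), 4 were detected in at least 50% of the 100 cells. They were Lifr (70%), Tgfbr3 (65%), Osmr (55%) and Il6st (50%). Lifr, Osmr and Il6st are chains of receptors of the interleukin 6 family. Tgfbr3, the co-receptor betaglycan, was detected in 2.78% of luminal cells. Prlr, the prolactin receptor gene, had 99.6% of its CPM in the 8 wells most like the luminal well of 50 cells.

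Of 30 immediate early and heat shock genes, 16 were detected in at least 50% of the 100 cells and 15 in the 83. The median share of the list was 55%. These genes are known to respond quickly to stress, including tissue dissociation. Egr1 had a median of 3892 CPM (0 to 19306) and a share of 97%, and Fos a median of 4134 CPM (0 to 15200) and a share of 91%. Egr1 and Fos were detected in 87.04% and 74.1% of luminal cells. The part of the dissociation in these levels was not tested. Their own Spearman correlation was 0.48 over the 100 cells and 0.50 over the 83, while the median over the 120 pairs of frequent members was 0.14 in both.

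Among the 427 genes in at least 50% of basal cells, 316 were also in at least 50% of luminal cells. Under 10% of luminal cells had the gene for 39 of the 427, which is 0.221% of the 17669 genes with a read. The limits of this count were chosen after the data were seen. The 39 include all 6 markers, the contractile genes Mylk, Tpm2, Myl9, Cnn1 and Tagln, and genes on none of the lists. Only 15 of the 39 were also under 10% of embryonic cells, so most were not particular to the basal gate. Among the 6 markers, Krt14, Krt5 and Trp63 were detected in 78.05%, 62.6% and 52.03% of embryonic cells. Acta2 and Myh11 were detected in 2.44% and 1.63% of embryonic cells, and Oxtr in none of them. Prelp and Gas1 were each detected in 75% of basal cells, with 8.33% and 3.704% of luminal cells, and the matrix protease gene Mmp2 in 71%, with 5.56%. The sodium channel gene Scn7a was detected in 67% with 1.85%, and Fst, which encodes the activin inhibitor follistatin, in 66% with 1.85%. Elastin (Eln) was detected in 61% of basal and none of the luminal cells, with the same limit of 2.78%.

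**Figure D4:**
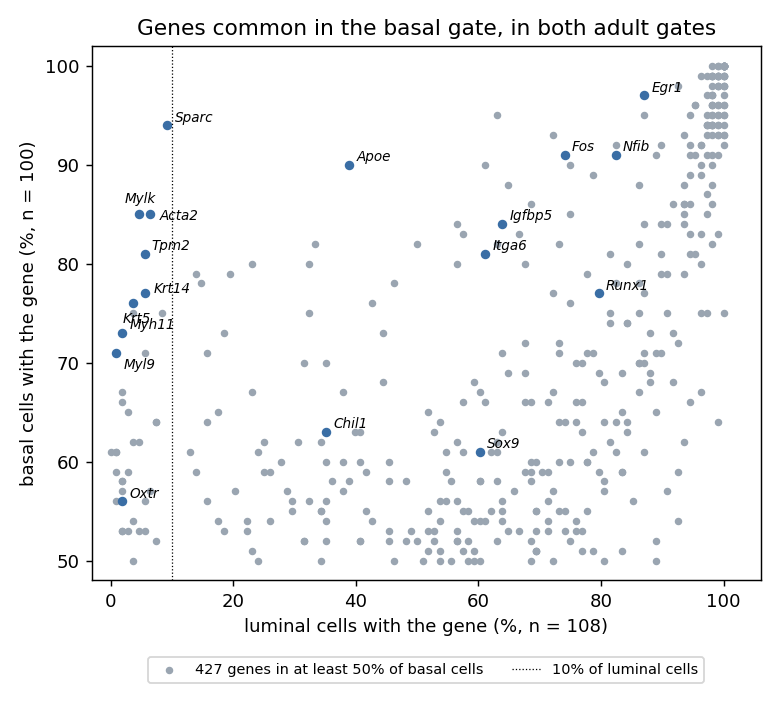
Share of the 100 basal cells (vertical axis, %) and of the kept luminal cells (horizontal axis, %) with each of the 427 genes detected in at least 50% of basal cells; the dotted line marks 10% of luminal cells. The 39 genes left of the line include Sparc at 94% and Acta2 at 85%, while Nfib, Egr1 and Fos lie to the right.

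Cell-to-cell variation was set against the ERCC spike-ins, RNAs added in equal amount to each well. A gene's squared coefficient of variation (CV2) was divided by the value of a curve fitted to 43 spike-ins at the same mean number of reads. Of 4053 genes with a mean of at least 50 CPM, 599 (14.8%) had a ratio of at least 2, and in the 83 cells 503 of 3938 (12.8%). The median ratio over the 4053 genes was 1.08, so the typical gene varied about as much as a spike-in of its level. Of the 30 genes at 1000 or more scaled reads, 20 had a ratio of at least 2.

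Of the 10 most variable genes, with the same kinds left out as for the highest levels (mitochondrial, ribosomal protein, Gm and Rik genes), 3 had means under 50 CPM without the cells in doubt, so that no ratio is given there, and 4 of the other 7 had ratios more than 1.5 times lower. Cd36, Itih5 and Ly6c1 had ratios of 25.1, 12.8 and 10.8 in the 100 cells, and their means over the 83 were 1.33, 0.247 and 0.0673 CPM. Hspa5, a chaperone of the endoplasmic reticulum, had 11.9 and 1.46, with 56.2% of its CPM in the 8 wells most like the luminal well of 50 cells. Cxcl1 had 10.45 and 1.598. Fabp4 had 34.5 and 9.10, and Spp1, which encodes osteopontin, 49.2 and 3.78.

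Acta2, Chil1 and Tdrd7 kept high ratios without the cells in doubt. The ratio of Acta2 was 10.6 in the 100 cells and 8.19 in the 83, and that of Chil1 22.8 and 20.8. Tdrd7 had 10.2 and 9.86, but it was detected in 4 cells and 98.8% of its CPM came from 5 cells. Slpi, Igfbp5 and Apoe, which are secreted too, had 9.55, 6.05 and 4.02 in the 100 cells and 8.84, 4.84 and 2.77 in the 83. Among the markers, Krt14 had 3.97, Oxtr 2.39, Trp63 1.96, Myh11 1.41 and Krt5 0.957.

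Leaving out mitochondrial and ribosomal protein genes and those named Gm or Rik, some of which varied less, the least variable genes had ratios of 0.0992 to 0.174 and include Eno1b, Snrpg, Cox7c, Atp5j2, Cops9, Tsix, Hnrnpf, Ptms and Nme2. Cox7c, a subunit gene of cytochrome c oxidase, had a highest value of 479 CPM and reads in 87 of 100 cells. Tsix is antisense to Xist, and without a stated strand mode reads of the pair cannot be told apart. Eno1b is a near-identical copy of Eno1, and reads may have been split between them.

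**Figure D5:**
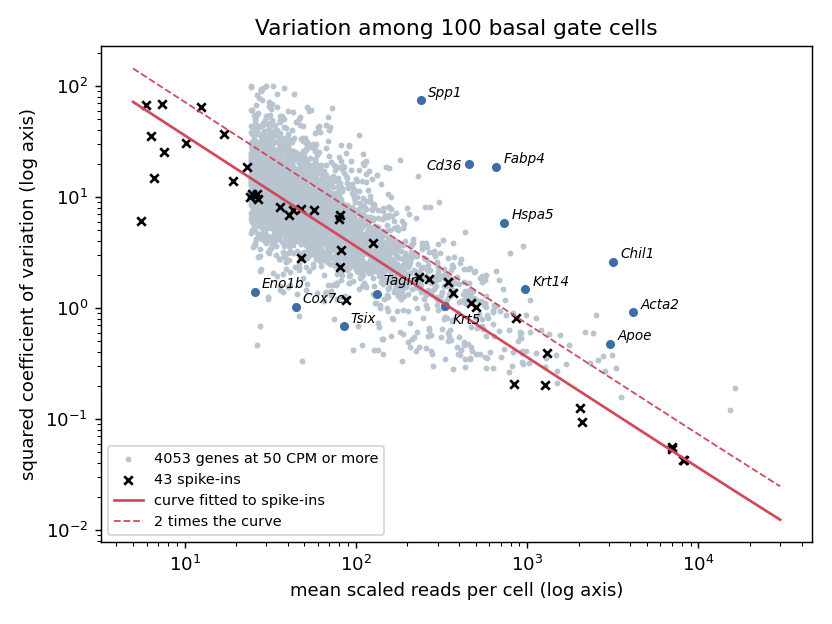
Squared coefficient of variation over 100 cells against the mean scaled reads per cell (both log axes) for 4053 genes (dots) and 43 spike-ins (crosses), with the curve fitted to spike-ins (solid) and 2 times the curve (dashed). Acta2 and Chil1 lie far above the dashed line, Krt5 near the solid line and Cox7c below it.

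Many genes were carried by a few cells. Of 7080 genes with a mean of at least 20 CPM, 5290 (74.7%) had over 50% of their CPM in 5 cells. In the range from 20 CPM to 100 scaled reads, 83.1% of 6283 genes did, with a median share of 70.4% in 5 cells, and so did 16 of 20 spike-ins, with a median of 57.3%. Spike-ins, which were added to every well but at these levels not read in each, thus often passed this limit too. Among the 10 genes with the largest share (100%), Cldn5 and Emcn are endothelial genes with no read in the 83 cells. Fitm2, Wdr90 and Zfp420 had their reads in 1, 5 and 5 of the 100 cells, with highest values of 5040, 5014 and 5460 CPM.

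Chil1 (chromosome 1, 134182176 to 134190181, plus strand) ranged from 0 to 50728 CPM, with a median of 946 CPM in the 100 cells and 2100 CPM in the 83. It was detected in 63% of the 100 cells and 71.1% of the 83, against 35.2% of luminal and 2.44% of embryonic cells. It had 0 reads in 18 of the 83 cells. Over 10000 CPM of Chil1 were found in 23 of the 100 cells, over 10000 CPM of Acta2 in 32, and both in 3 cells. The limit was chosen after the data were seen, and no number from the product of the shares was set beside these counts.

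Over the 83 cells, Chil1 had Spearman correlations of -0.39 with Acta2, -0.48 with Cnn1, -0.44 with Myl9, -0.53 with Myl6 and -0.42 with Oxtr. Over all 100 cells these were -0.12, -0.24, -0.19, -0.31 and -0.19. Igfbp5 had the highest value with Chil1 over the 100 cells, 0.50, and 0.37 over the 83. The mitochondrial ribosomal RNA gene mt-Rnr2 had 0.49 and 0.46, and the part of mitochondrial RNA in the relation was not tested. Within single plate rows, with the cells in doubt included, the value of Chil1 with Acta2 ran from -0.40 to 0.18.

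Plate rows differed in some of these genes. Over rows A to E, which held 14, 17, 17, 23 and 20 kept cells, the row medians of Chil1 ran from 2.60 to 3567 CPM and those of Krt14 from 348 to 2081 CPM. In the 83 cells they ran from 289 to 5575 and from 502 to 2853 CPM. Row medians of Acta2 were closer, from 5222 to 7030 CPM, and those of Apoe from 6074 to 6225 CPM. The labels give no reason for the rows, and row and animal cannot be told apart.

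Genes of the cell cycle were looked at as 2 lists. Of 15 S phase and 18 G2 and M phase genes, none was detected in 50% of cells, where 2.42% of all genes were, and the median shares were 3% and 1% against 3% over all genes. Of the 100 cells, 92 had no G2 and M phase gene detected. At least 3 G2 and M genes were detected in 2 cells, which were the 2 most like the embryonic well of 50 cells, with 4 and 10 of them and summed levels of 2730.5 and 7793 CPM. In all other cells the sum had a median of 0 and a highest value of 670 CPM. At least 3 S phase genes were detected in 3 cells, with summed levels of 445, 506 and 954 CPM. The cell with 445 CPM was the one with 10 G2 and M genes. The cells with 506 and 954 CPM were most like the basal well of 50 cells. Among S phase genes the cell with the highest sum, 8901 CPM, had 96.7% of it from Rrm1 alone.

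Luminal keratins were seen at low levels in many basal cells. Krt8 was detected in 46% of the 100 cells and 42.2% of the 83, and Krt18 in 32% and 27.7%. The summed CPM of the 4 luminal keratins had a median of 155 and a highest value of 2113 CPM in the 83 cells, against a median of 14455 CPM in the 8 wells most like the luminal well of 50 cells.

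The well of 50 basal cells, a pool sequenced once, gave levels to set beside the sum over single cells. Per length it had 9006 TPM of Acta2 against 12785, 7738 of Apoe against 9228 and 3010 of Chil1 against 6328 TPM. Krt14 and Krt5 were lower in the pool, at 1755 and 257 TPM against 3711 and 1001. B2m and Ifitm3 were higher there, at 13777 and 12360 TPM against 5284 and 5911. Acta2, the highest of these genes in the sum, was thus below B2m and Ifitm3 in the pool, and Slpi, at 5007 TPM there, was above Chil1. With 1 pool these differences were not tested.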

How the data were processed

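Sorted cells filled 1 plate, and libraries were made, per the labels' protocols, with a modified Smart-seq2 protocol (24 cycles) and Nextera XT. The deposited values are read counts per gene and well, made by the authors with cutadapt 1.13, STAR 2.5.2b and HTSeq 0.6.0 on GRCm38, per the submitters' processing notes. Annotation and strand mode: not given in the sources used here. Overlapping genes may therefore share reads. All 384 columns were mapped by barcode, and 1 well with discordant labels was left out. Names, positions and exon lengths came from GENCODE M21 (49326 of 49585 identifiers matched).

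Spike-ins were left out of gene totals. Likeness to the 3 wells of 50 cells was a Spearman correlation over the 10315 genes that reached 10 CPM in at least 1 such well. For CV2, genes were scaled to gene totals and spike-ins to spike-in totals, each times its median. No doublet caller was run. The CV2 ratio and the totals after thinning were tested on simulated data (Python 3 with numpy, pandas and scipy). The simulation used the same kind of curve, with changed genes only well above the 50 CPM limit. The other statistics were not tested so. The members and lists were chosen with earlier results of these data known.

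Named genes were the 6 markers, the 20 highest per length (here and for variation and share in 5 cells without mitochondrial, ribosomal protein, Gm and Rik genes), the 4 highest of each list, the 10 most and 10 least variable at 50 CPM or more, the 10 with the largest share in 5 cells at 20 CPM or more, and the 5 most like Acta2, Krt14 and Oxtr. Alternatives changed the reads for detection, thinning, cell filter, CV2 limits and the cells kept. The 24 genes of the contractile list and those of the other lists are counted by members in 50% of cells. Some genes of the naming rule are not reported here.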

Additional observations from a re-analysis of the deposited data

Results flagged for a closer look

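Basal markers were also found in wells that the filter left out, which enter none of the values above (8 of them, with at least 50000 gene reads, enter 1 alternative). Of the 18 basal wells left out, 14 had Acta2 reads, above the wells without a cell, where the highest count was 0. Their Acta2 counts ran from 0 to 660 with a median of 15.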

How the results depend on the processing

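The number of genes in at least 50% of cells depended on what counts as detection: 427 became 935 with 1 read, 282 with 10 reads and 988 with 5 reads in unthinned cells. It stayed within 1.5 times with only matching cells, a stricter filter, all wells with 50000 reads, or without the cells in doubt. With a CV2 ratio of 4 in place of 2, 3.31% of the genes passed in place of 14.8%. With a mean of 50 CPM in place of 20, 2364 genes in place of 5290 had over 50% in 5 cells. The share of cells with at least 3 basal markers was 84% and, without the cells in doubt, 96.4%. The share of cells that match the basal well of 50 cells best kept within its interval in each alternative run. The contractile count ran within 1.5 times of 13 in each. Other list counts depended on what counts as detection. Of 20 lists, 10 moved by over 1.5 times with 1 read, 7 with 10 reads and 11 with 5 reads in unthinned cells. All 20 stayed within that limit with only matching cells, a stricter filter, or without the cells in doubt. With 1 read, 61 shares of named genes left their intervals. Among named genes, 100 shares stayed within their intervals without the cells in doubt and 32 did not, and 38 levels moved by over 1.5 times. Against the well of 50 cells, 78 levels did. No paired analysis was possible because no test was made. At 50000 reads per cell, only genes near or above 100 CPM are detected, and with 1 sample the spread between animals is not measured.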

Other observations

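Glycolysis and antigen presentation were not described above. Of 14 glycolysis genes, 3 were detected in at least 50% of the 100 basal cells: Gapdh (71%), Eno1 (59%) and Aldoa (53%). Ldha, which encodes lactate dehydrogenase, was detected in 49% of basal and 83.3% of luminal cells. Of 15 genes of MHC class I and interferon response, 4 were detected in at least 50%, among them B2m (91%), the MHC heavy chain genes H2-D1 (83%) and H2-K1 (75%), and Ifitm3 (95%). The summed CPM of this list had a median of 3694 in the 83 cells and 16736 in the 6 wells with endothelial markers, which held 25.2% of the gate's CPM of B2m. Of 12 housekeeping genes, 9 were detected in at least 50% of the 100 cells. The glycolysis, MHC class I and housekeeping lists had median shares of 22.5%, 13% and 85%, against 3% over all genes with a read. Of all genes with a read, 2.42% reached 50% of the 100 cells.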
